A study of Canis lupus familiaris with 48 samples.

Results

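The genes described here lie side by side on dog chromosome 15, in a window of 942706 bases (chr15:39444146-40386851, CanFam3.1) around ENSCAFG00000006942, a gene that was nearly silent in control and urea libraries and abundant after NaCl and raffinose. The window holds 11 of the 32704 annotated genes in the count table. The members were selected on their place in this window and on their mean level, and are the 9 genes with a mean of at least 1 CPM (reads of the gene per megaread counted in the library) in any of the 4 groups, and all 9 were among the 12654 genes tested. Of these 9, 3 reached that minimum only after NaCl and raffinose. The run was chosen by its response to NaCl and raffinose, so their values against control and against urea are a description of what was chosen, without a test. The comparisons of urea with control and of NaCl with raffinose, and the trend with passage, are not named in the rule for the members and were tested, on the premise that they played no part in the choice, which the rule does not state. That premise is least sure for ENSCAFG00000006942. The run was drawn around it as nearly silent in control and urea and abundant after NaCl and raffinose. Its likeness within each of these pairs of groups may thus be part of the choice.

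Messenger RNA was measured by sequencing of polyadenylated RNA from MDCK I cells, an established epithelial line from dog kidney. Cells were cultured for 144 h, and for the last 24 h the medium carried NaCl, raffinose or urea on top (200 mOsm more, 500 mOsm in total) or, in the control group, only its own 300 mOsm. Each group has 12 libraries, 1 at each of 12 cell passages between 1 and 19, and the same passage numbers occur in every group. The replicates are passages of 1 cell line, so p-values measure the spread between passages. Library totals ran from 3.92 to 16.16 megareads counted, so that 1 CPM stands for 3.92 to 16.16 reads before scaling. In RNA from whole cultures, fewer cells that express a gene and less RNA per cell cannot be told apart.

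Collecting duct cells of the kidney can be exposed to high and changing osmolality. NaCl and raffinose stay largely outside the cell and draw water from it, and mammalian cells answer with the transcription factor NFAT5 (also called TonEBP), which raises genes for the uptake and synthesis of organic osmolytes and for protein chaperones. Urea crosses membranes, causes little lasting shrinkage and sets off a largely separate stress response. The question put to the series was how expression, of membrane transporters above all, changes under these solutes. The genes carry Ensembl identifiers, and the table and the gene list used here pair none of them (0 of 32704) with a symbol, so the 9 genes are given by identifier, position and level, with no name or role, and the prepared lists of tonicity genes and cell markers were not applied.

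From the low end of the window to the high end, the members are ENSCAFG00000006786 (chr15:39444146-39489608, plus strand, 13 exons), ENSCAFG00000033737 (chr15:39536090-39552163, plus, 2 exons) and ENSCAFG00000006835 (chr15:39552805-39609514, plus, 10 exon blocks). The middle holds ENSCAFG00000036538 (chr15:39600673-39622929, minus, 2 exons), ENSCAFG00000033050 (chr15:39618558-39621441, minus, 2 exons) and ENSCAFG00000006883 (chr15:39635909-39657574, plus, 9 exon blocks). At the high end are ENSCAFG00000006923 (chr15:39806107-40149031, plus, 28 exons), ENSCAFG00000006942 (chr15:40179872-40239634, minus, 15 exons) and ENSCAFG00000006964 (chr15:40291196-40386851, plus, 62 exons). ENSCAFG00000033050 lies within the span of ENSCAFG00000036538, and the spans of ENSCAFG00000036538 and ENSCAFG00000006835 overlap on opposite strands. No pair of the 9 shares an exonic base, so reads counted over exons were not split between them, although reads were counted without regard to strand. The window's other 2 genes fell short of the minimum. ENSCAFG00000031488, the nearest below it, had its highest group mean in control, 0.295 CPM, while the lowest highest-group mean among the members was 1.78 CPM, for ENSCAFG00000006786 after raffinose. ENSCAFG00000036891 had 7 reads over the 12 NaCl libraries, 5 over the raffinose libraries and 0 over urea and control libraries, where 0 reads allow up to 0.0234 CPM in urea and 0.0213 CPM in control as a group (3 reads, counting error only).

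ENSCAFG00000006942 showed the widest contrast. It had 209.4 ± 42.4 CPM after NaCl (lowest 134.4, median 212.7, highest 261.6) and 224.9 ± 49.8 CPM after raffinose (lowest 127.6, median 227.8, highest 309.4), each ± SD with n = 12. It had 0.208 ± 0.509 CPM after urea, with reads in 5 of 12 libraries, and 0.267 ± 0.413 CPM in control, with reads in 8 of 12. Every NaCl and raffinose library lay far above every urea and control library, the contrast around which the run was drawn. Log2 fold changes from edgeR's fit were 9.44 ± 0.30 (SE) for NaCl against control and 9.54 ± 0.30 for raffinose against control, each the third highest of the 12654 tested genes, and 9.88 ± 0.32 and 9.98 ± 0.32 for NaCl and raffinose against urea, in both cases the highest.

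The few reads of this gene outside the NaCl and raffinose groups sat mostly in single libraries. Urea at passage 5 held 19 of the 27 urea reads (1.77 CPM), and control at passage 4 held 21 of the 41 control reads (1.46 CPM). Without the highest library the group means were 0.0657 CPM for urea and 0.159 CPM for control. Without passage 4 the log2 fold changes over control were 10.28 for NaCl and 10.38 for raffinose, and without passage 5 those over urea were 11.41 and 11.48. The same libraries stood high for some genes elsewhere. These genes were picked for their likeness to ENSCAFG00000006942 over the same 48 libraries, so part of this was built into the choice. ENSCAFG00000032573 on chromosome 6 had 3.17 CPM in urea at passage 5 and 0.695 CPM in control at passage 4, the highest of each group. ENSCAFG00000006538 on chromosome 25 had 148.4 CPM in urea at passage 5, where the highest urea library had 160.4, and 157.6 CPM in control at passage 4, the highest of the controls. ENSCAFG00000013396 on chromosome 6 had its highest urea level at passage 5 (1.49 CPM). In control at passage 4 it had 0.209 CPM, where the highest control had 0.277. For the neighbours ENSCAFG00000006923 (38.7 CPM) and ENSCAFG00000006964 (105.1 CPM), urea at passage 5 was instead the lowest urea library. The part these libraries play in the low urea and control levels was not tested.

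Both neighbours of ENSCAFG00000006942 were abundant in every group and more so after NaCl and raffinose. ENSCAFG00000006964, which starts 51.6 kb from its start and runs the other way, had 480.5 ± 61.4 CPM after NaCl (352.1 to 596.3) and 502.7 ± 97.4 after raffinose (385.8 to 739.8), against 142.5 ± 19.6 after urea (105.1 to 174.0) and 121.9 ± 21.3 in control (85.4 to 156.5). Its log2 fold changes over control were 1.98 ± 0.10 for NaCl and 2.04 ± 0.10 for raffinose. ENSCAFG00000006923, which ends 30.8 kb below ENSCAFG00000006942, had 118.6 ± 19.7 CPM after NaCl (85.1 to 159.5) and 117.2 ± 17.3 after raffinose (92.3 to 145.1), against 50.2 ± 7.95 after urea (38.7 to 65) and 26.4 ± 6.40 in control (17.9 to 37.6). Its values stood in 3 levels without overlap, with NaCl and raffinose together at the top, urea between and control at the bottom.

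**Figure D1:**
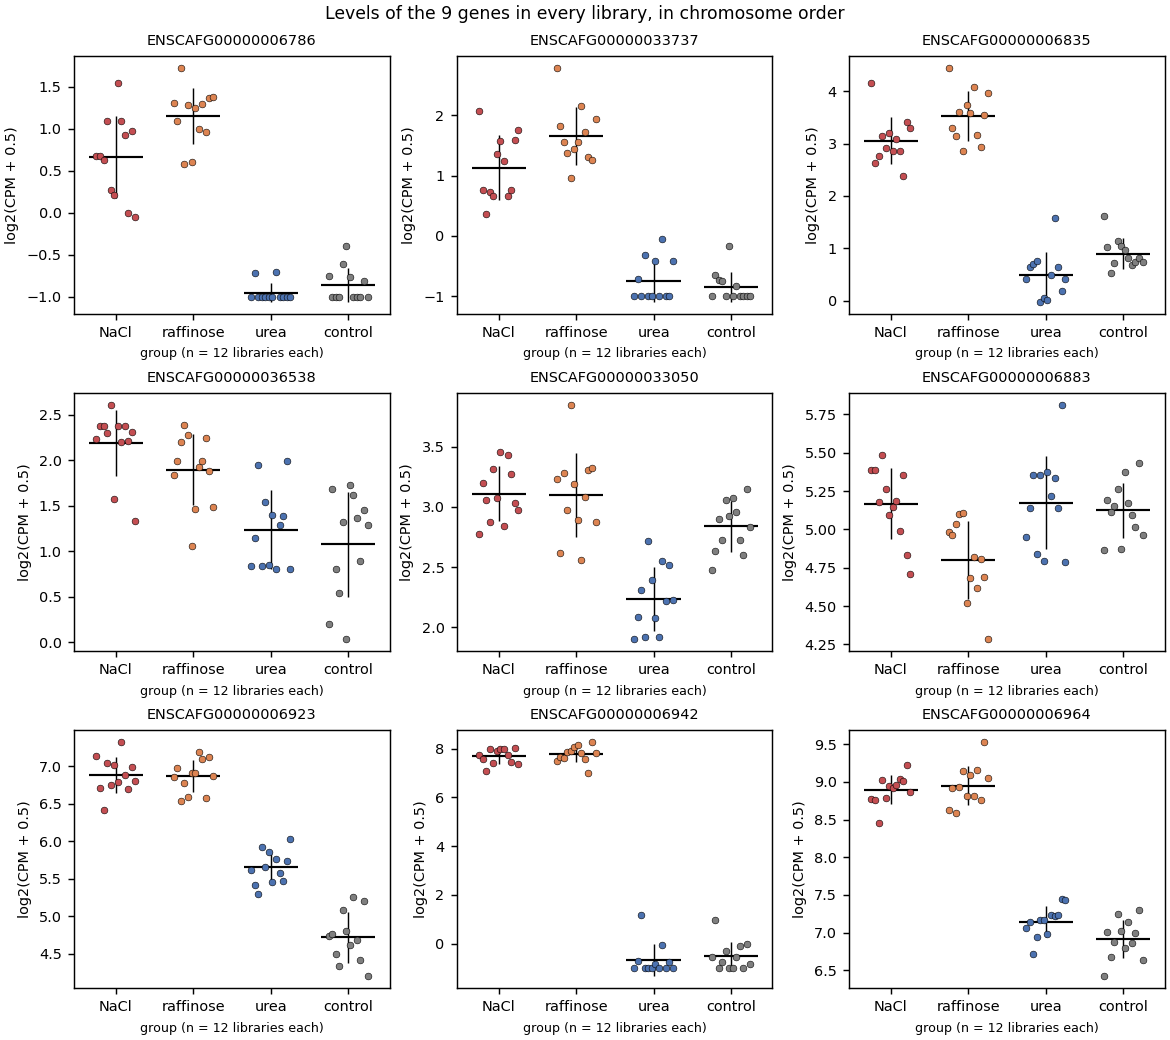
Levels of the 9 genes as log2(CPM + 0.5), 1 panel per gene in chromosome order, with 1 point per library, groups of 12 libraries on the horizontal axis, and the mean ± SD of the plotted values as a bar and line. A value of -1 is a library with no read. ENSCAFG00000006942 parts all NaCl and raffinose libraries from all urea and control libraries, ENSCAFG00000006923 shows urea between these levels and control, and ENSCAFG00000006883 shows raffinose lowest, at 27.8 CPM on average.

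The 3 genes at the low end of the window had low levels in all groups. In each of them every NaCl and raffinose library lay above every urea and control library. Against control this held for 13.2% of all genes after NaCl and 14.3% after raffinose, and against urea for 13.6% and 14.2%. ENSCAFG00000006786 and ENSCAFG00000033737 reached a mean of 1 CPM only after NaCl and raffinose. For these genes the separation is thus partly built into the rule for members. ENSCAFG00000006786 had 1.17 ± 0.570 CPM after NaCl (0.466 to 2.41) and 1.78 ± 0.501 after raffinose (0.995 to 2.81), while the 12 urea libraries held 2 reads in all and the 12 controls 6. ENSCAFG00000033737 had 1.84 ± 0.908 CPM after NaCl (0.781 to 3.72) and 2.84 ± 1.32 after raffinose (1.45 to 6.42), with 16 reads over all urea libraries and 8 over all controls. ENSCAFG00000006835 had 8.24 ± 3.25 CPM after NaCl (4.74 to 17.3) and 11.7 ± 4.28 after raffinose (6.77 to 21.3), against 0.973 ± 0.539 after urea (0.484 to 2.49) and 1.40 ± 0.432 in control (0.935 to 2.58). In log2 terms the changes over control were 4.43 ± 0.40 for NaCl and 5.02 ± 0.38 for raffinose in ENSCAFG00000006786, and 4.76 ± 0.45 and 5.38 ± 0.44 in ENSCAFG00000033737. For ENSCAFG00000006835 they were 2.56 ± 0.21 after NaCl and 3.07 ± 0.21 after raffinose. In all 3 genes raffinose had the highest mean and NaCl the next, with overlapping libraries.

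ENSCAFG00000033737 ends 641 bases before ENSCAFG00000006835 begins, on the same strand. Per kilobase of exon, ENSCAFG00000033737 and ENSCAFG00000006835 had like levels after NaCl (2.88 ± 1.43 and 2.49 ± 0.983 CPM per kb) and after raffinose (4.47 ± 2.07 and 3.53 ± 1.29 CPM per kb). In control ENSCAFG00000033737 was lower per kilobase (0.104 ± 0.180 CPM per kb) than ENSCAFG00000006835 (0.424 ± 0.131 CPM per kb). That control value of ENSCAFG00000033737 rests on 8 reads, with no read in 7 of 12 libraries. After urea, ENSCAFG00000033737 had 0.179 ± 0.252 CPM per kb, from 16 reads, and ENSCAFG00000006835 had 0.294 ± 0.163. The passage 1 libraries were the highest for both genes after NaCl and after raffinose.

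The 3 genes in the middle of the window showed smaller differences. ENSCAFG00000036538 had 4.18 ± 0.990 CPM after NaCl (2.02 to 5.61) and 3.34 ± 0.946 after raffinose (1.58 to 4.73). It had 1.96 ± 0.793 after urea (1.25 to 3.47) and 1.76 ± 0.795 in control (0.524 to 2.82). The libraries of every pair of groups overlapped. ENSCAFG00000033050 had 8.22 ± 1.39 CPM after NaCl (6.33 to 10.5), 8.30 ± 2.25 after raffinose (5.40 to 13.9), 4.29 ± 0.911 after urea (3.24 to 6.06) and 6.71 ± 1.03 in control (5.07 to 8.36). ENSCAFG00000006883 had 35.9 ± 5.63 CPM after NaCl (25.7 to 44.2), 27.8 ± 4.75 after raffinose (19.0 to 34), 36.4 ± 8.10 after urea (27.1 to 55.7) and 34.7 ± 4.41 in control (28.7 to 42.8). The log2 differences from control were 1.21 ± 0.20 for NaCl and 0.87 ± 0.21 for raffinose in ENSCAFG00000036538, and 0.29 ± 0.12 for either solute in ENSCAFG00000033050. ENSCAFG00000006883 differed from control by 0.05 ± 0.10 after NaCl, with -0.12 under scaling by library totals alone, and by -0.32 ± 0.10 after raffinose.

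**Figure D2:**
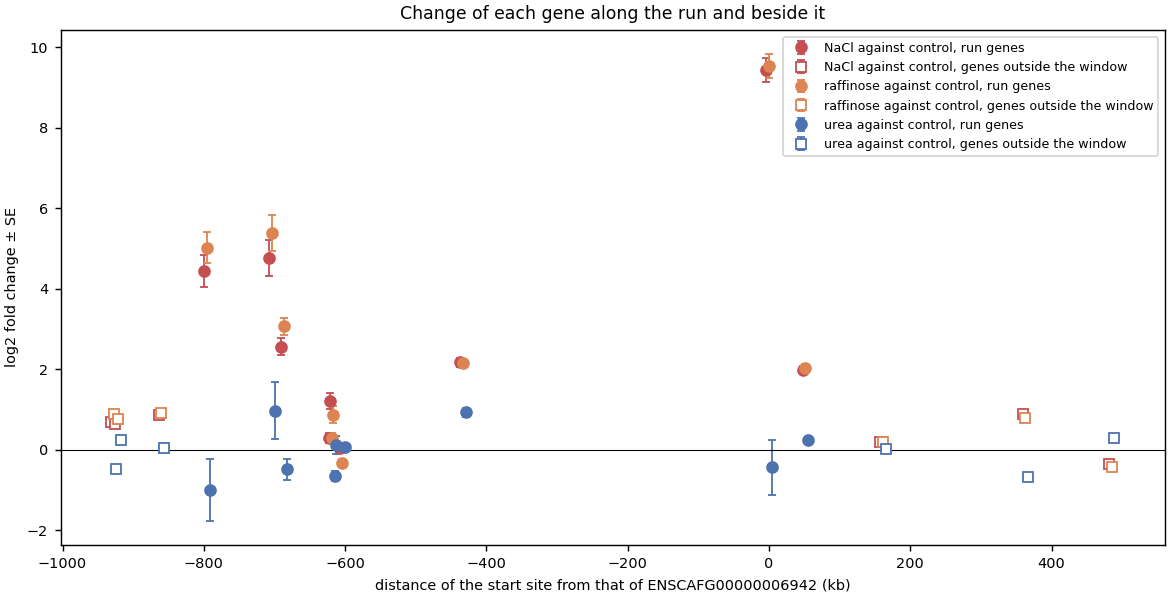
Log2 fold change of each solute against control (± SE, vertical axis) by the distance of the gene's annotated start from that of ENSCAFG00000006942, in kb; filled circles are the 9 genes and open squares the 3 nearest tested genes on each side, with solutes shifted by 4 kb for legibility. Among the filled circles, NaCl and raffinose values run from 9.44 and 9.54 at ENSCAFG00000006942 to 0.05 and -0.32 at ENSCAFG00000006883. Raffinose lies above NaCl at the 3 leftmost circles. The urea value of the leftmost circle rests on 2 urea reads and 6 control reads.

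Counted over the 9 genes, 7 were at least 2-fold higher after NaCl than in control, where 9.82% of all tested genes were, and 6 after raffinose (12.1% of all). Against urea these counts were 7 for NaCl (11.5% of all) and 6 for raffinose (13.5% of all). The median log2 fold change of the members was 2.17 after NaCl and 2.15 after raffinose, with -0.02 for both over all tested genes. In 6 of 9 every NaCl library lay above every control library (13.2% of all genes), as did every raffinose library in 6 of 9 (14.3% of all). Against urea the NaCl libraries lay wholly above in 7 of 9 (13.6% of all) and the raffinose libraries in 6 of 9 (14.2% of all). These counts describe genes chosen for this response. The comparisons share control or urea libraries, so they are not separate measurements. With libraries scaled by totals only, the median of all tested genes was -0.19 for NaCl and -0.25 for raffinose against control.

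The level per length shows how far the order of the genes changed between groups. ENSCAFG00000006942 had the highest level per kilobase of exon of the 9 after NaCl (113.8 ± 23.1 CPM per kb) and raffinose (122.3 ± 27.1). ENSCAFG00000006964 came next, with 55.5 ± 7.09 CPM per kb after NaCl and 58.0 ± 11.2 after raffinose. In control the highest per kilobase were ENSCAFG00000006883 (17.1 ± 2.17 CPM per kb) and ENSCAFG00000006964 (14.1 ± 2.46), with ENSCAFG00000006942 at 0.145 ± 0.225. Added up, the 9 genes had 868.0 ± 109.9 CPM after NaCl, 900.6 ± 140.9 after raffinose, 236.7 ± 26.2 after urea and 193.3 ± 30.3 in control. ENSCAFG00000006942 made up 23.9 ± 2.39% of that sum after NaCl and 24.9 ± 3.38% after raffinose, against 0.10 ± 0.26% after urea and 0.131 ± 0.202% in control.

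Urea against control compares a solute that enters cells with regular medium. It changed 3 of 9 (2 rose, 1 fell), where 52.3% of all tested genes passed the same threshold of 0.05 on edgeR's adjusted p. ENSCAFG00000006923 rose by 0.93 ± 0.11 on the log2 scale (adjusted p = 1.47e-10), was higher in 12 of 12 same-passage pairs, and was the only 1 of the 9 in which every urea library lay above every control library (4.67% of all genes). ENSCAFG00000033050 fell by 0.66 ± 0.12 (log2, adjusted p = 8.7e-06) and was lower in 12 of 12 pairs. ENSCAFG00000006964 rose by 0.23 ± 0.09 (log2, adjusted p = 0.0367, 11 of 12 pairs higher). That last call was lost with libraries scaled by totals only (0.15, adjusted p = 0.154) and with no filter on low counts. It was also lost without passage 1, 11, 14, 16 or 19, where adjusted p ran up to 0.135. The difference stayed between 0.15 and 0.23 in all of these. The call was kept under the other settings, DESeq2 included. With passage as a replicate block the difference was again 0.23, with a smaller SE and a lower adjusted p than without the block.

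The other 6 did not pass for urea against control, which for ENSCAFG00000006942 may be part of how it was chosen. ENSCAFG00000006942 differed by -0.44 ± 0.68 (adjusted p = 0.609, with a 95% interval from -1.77 to 0.88). Without the urea library of passage 5 the difference was -1.92 ± 0.74 (adjusted p = 0.027), without passage 5 in every group -2.02 (adjusted p = 0.0172), and without passage 4 it was 0.44 (adjusted p = 0.65). Its direction under urea thus differed with which of these libraries was left out. ENSCAFG00000006835 differed by -0.49 ± 0.26 (adjusted p = 0.1, lower in 9 of 12 pairs), and by -0.74 (adjusted p = 0.0142) without passage 14, which held its highest urea library. Leaving out a group's highest library lowers that group's mean by construction. The fits of these genes without passage 4, 5 or 14 are thus a description, and their adjusted p carry no added weight. ENSCAFG00000036538 differed by 0.12 ± 0.22 and ENSCAFG00000006883 by 0.07 ± 0.10, which was -0.00 with totals only. ENSCAFG00000006786 and ENSCAFG00000033737 had too few reads in these groups for a useful value (adjusted p = 0.277 and 0.253).

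NaCl against raffinose compared the solutes at equal osmolality, and ENSCAFG00000006942 itself did not pass there, which may again be part of how this gene was chosen. Its difference was -0.10 ± 0.17 (adjusted p = 0.737, 95% interval -0.44 to 0.23), that of ENSCAFG00000006964 was -0.07 ± 0.09 (interval -0.24 to 0.11), and that of ENSCAFG00000006923 was 0.01 ± 0.10 (interval -0.18 to 0.21). In all, 2 of 9 passed (1 higher and 1 lower after NaCl), against 15.4% of all tested genes. ENSCAFG00000006883 was higher after NaCl by 0.37 ± 0.10 (adjusted p = 0.0069), in 12 of 12 same-passage pairs, with overlapping groups. ENSCAFG00000006835 was lower after NaCl by -0.50 ± 0.17 (adjusted p = 0.0409), in 11 of 12 pairs. The call on ENSCAFG00000006835 was lost with totals only (adjusted p = 0.061), with no filter on low counts (0.0849), with only the NaCl and raffinose libraries (0.0751), and without passage 4, 5, 7, 10, 11, 13 or 19 (0.055 to 0.111). The difference itself stayed between -0.51 and -0.44 in all of these.

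The other 2 genes at the low end also had lower means after NaCl than after raffinose. The difference was -0.59 ± 0.23 for ENSCAFG00000006786 (adjusted p = 0.0687, lower in 9 of 12 pairs) and -0.62 ± 0.26 for ENSCAFG00000033737 (adjusted p = 0.103, lower in 10 of 12 pairs). With passage as a replicate block both passed (-0.62, adjusted p = 0.0233, and -0.61, adjusted p = 0.0303), which made 4 of 9, while over all genes 3595 passed with the block and 1948 without it. ENSCAFG00000006786 also passed without passage 7 (adjusted p = 0.046) or 11 (0.03). ENSCAFG00000036538 (0.33 ± 0.20, adjusted p = 0.26) and ENSCAFG00000033050 (-0.00 ± 0.12, adjusted p = 0.985, 0.06 with totals only) did not pass.

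**Figure D3:**
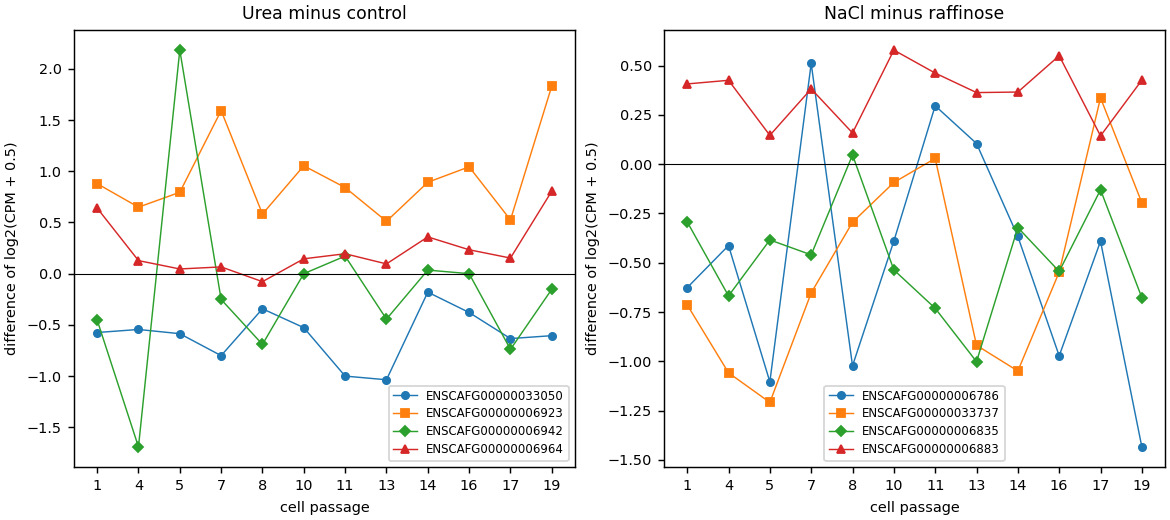
Differences of log2(CPM + 0.5) between libraries of the same passage (horizontal axis), for urea minus control on the left and NaCl minus raffinose on the right, with 1 line per gene. ENSCAFG00000006923 lies above 0 and ENSCAFG00000033050 below 0 at every passage on the left, where ENSCAFG00000006942 runs from -1.69 at passage 4 to 2.18 at passage 5; on the right ENSCAFG00000006883 lies above 0 at every passage.

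None of the 9 passed for a linear trend with passage in edgeR, fitted to the sum of each passage's 4 libraries (0 of 9, with 0 at an unadjusted p under 0.05, against 0.0615% of all genes tested there). Slopes ran from -0.22 to 0.18 log2 units per 10 passages, and some directions hung on passage 1. Without it the slope of ENSCAFG00000006835 was 0.13 in place of -0.22, and that of ENSCAFG00000033737 was 0.28 in place of -0.18, neither of which passed. With all 48 libraries entered singly, ENSCAFG00000006964 passed (0.23 ± 0.05, adjusted p = 0.00215), a fit that takes libraries of 1 passage as independent. Certain passages recurred at the ends of the ranges. Passage 17 held the highest NaCl and raffinose libraries of both ENSCAFG00000006942 and ENSCAFG00000006964, and passage 5 the lowest NaCl libraries of these genes and of ENSCAFG00000006923.

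After group means were removed, correlations between the 9 genes ran from negative to positive. ENSCAFG00000006786, ENSCAFG00000033737 and ENSCAFG00000006942 had a median of 0 or 1 read in urea and control libraries. Counting noise thus limits their values over all 48 libraries, which cannot show whether the 9 genes vary together. Over the 36 pairs the median Pearson's r was 0.085 (from -0.37 to 0.69), and over the 8 pairs of adjacent members 0.165, where 12562 pairs of adjacent tested genes across the genome had a median of 0.103 (quartiles -0.0891 and 0.296). All points share libraries and depth, and the values are a description over 48 libraries. The highest was between ENSCAFG00000036538 and ENSCAFG00000006883 (0.69), which lie 13.0 kb apart and point away from each other, with 0.52 within NaCl, 0.76 within raffinose, 0.85 within urea and 0.73 within control. Next was ENSCAFG00000033737 with ENSCAFG00000006835 (0.64), with 0.77 within NaCl, 0.80 within raffinose, 0.55 within urea and 0.01 within control, where ENSCAFG00000033737 had 8 reads in all. ENSCAFG00000006923 with ENSCAFG00000006964 followed (0.55). ENSCAFG00000006942 lies between the genes of that last pair. Its r was 0.79 with ENSCAFG00000006923 and 0.74 with ENSCAFG00000006964 within NaCl, and 0.44 and 0.59 within raffinose, over 12 libraries each. Within urea, where 7 libraries had no read of ENSCAFG00000006942, these were -0.58 and -0.57, and within control 0.40 and 0.34. Urea at passage 5 alone held 19 of the 27 urea reads of ENSCAFG00000006942. It was also the lowest urea library of ENSCAFG00000006923 and of ENSCAFG00000006964.

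**Figure D4:**
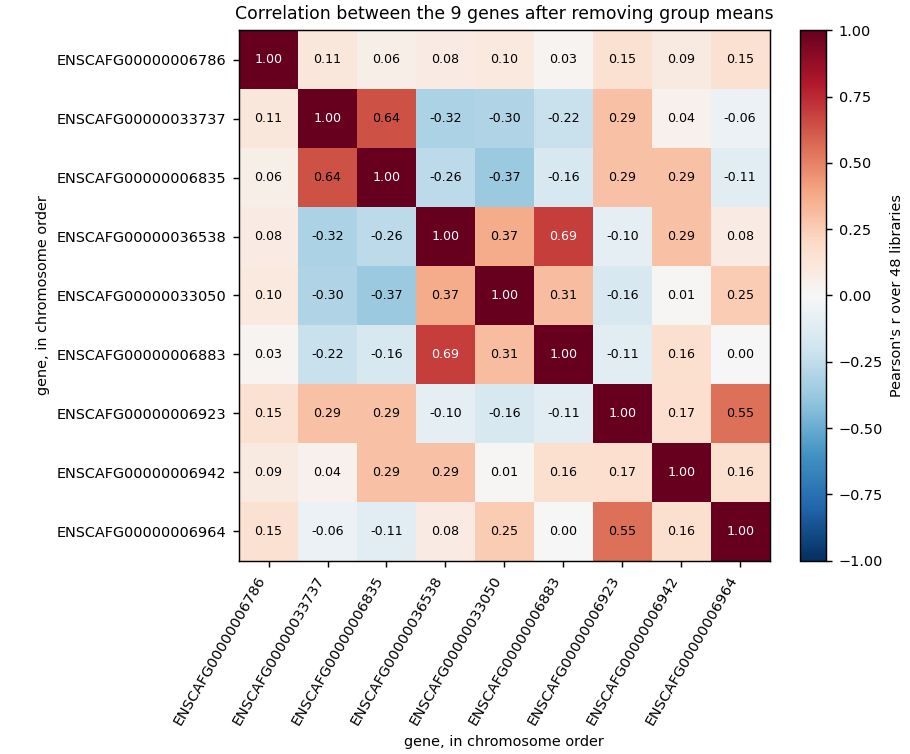
Pearson's r between the 9 genes over 48 libraries after group means were removed from log2(CPM + 0.5), with genes in chromosome order on both axes and r given in each cell and by colour. Values run from -0.37 to 0.69 off the diagonal, and the darkest cells off it are ENSCAFG00000036538 with ENSCAFG00000006883 and ENSCAFG00000033737 with ENSCAFG00000006835.

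Genes outside the window were set beside the run, and several of them were also higher after NaCl and raffinose. The nearest on the low side, ENSCAFG00000006752, ends 14.1 kb before ENSCAFG00000006786 on the same strand and had 225.5 ± 21.4 CPM after NaCl, 235.5 ± 36.1 after raffinose, 129.4 ± 12.2 after urea and 125.5 ± 16.1 in control. Its log2 fold changes over control were 0.85 ± 0.07 for NaCl and 0.91 ± 0.07 for raffinose. ENSCAFG00000006703 and ENSCAFG00000006719, farther out, had log2 fold changes over control of 0.69 ± 0.09 and 0.63 ± 0.10 after NaCl and of 0.88 ± 0.09 and 0.76 ± 0.10 after raffinose. In all 3 of these low-side genes every NaCl library (13.2% of all genes) and every raffinose library (14.3% of all) lay above every control library. Their changes were larger than those of the members ENSCAFG00000033050 and ENSCAFG00000006883 in the middle of the window. They were smaller than those of the 3 members at its low end. For NaCl against control the log2 fold change was 4.43 at ENSCAFG00000006786 and 0.85 at ENSCAFG00000006752. On the high side ENSCAFG00000006992 lies 4.2 kb from the end of ENSCAFG00000006964, on the opposite strand, and had 40.3 ± 5.85 CPM after NaCl, 40.4 ± 5.86 after raffinose, 36.1 ± 4.37 after urea and 35.5 ± 3.97 in control. For NaCl against control the log2 fold change was thus 1.98 at ENSCAFG00000006964 and 0.19 at ENSCAFG00000006992. Farther out, ENSCAFG00000007213 had 0.88 ± 0.10 after NaCl, with every NaCl library above every control library, and 0.79 ± 0.10 after raffinose, with overlap, and ENSCAFG00000007248 had -0.35 ± 0.06 and -0.44 ± 0.06.

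The 3 genes elsewhere with the pattern most like that of ENSCAFG00000006942, by Pearson's r of log2(CPM + 0.5) over the 48 libraries, were ENSCAFG00000006538 (chr25:8972958-9000762, r = 0.995), ENSCAFG00000032573 (chr6:7150741-7154682, r = 0.994) and ENSCAFG00000013396 (chr6:7167263-7179455, r = 0.991). The points fall into 2 clusters, the NaCl and raffinose libraries and the rest. With group means removed the r were 0.44, 0.66 and 0.47. By Spearman's rho (0.857, 0.817 and 0.815) the same genes came only at places 42, 313 and 339, while with 0.1 CPM added in place of 0.5 they were again the first 3. ENSCAFG00000006538 was present in every group, with 3593.7 ± 384.8 CPM after NaCl and 3740.2 ± 353.9 after raffinose, against 124.3 ± 18.5 after urea and 127.0 ± 19.1 in control. By the same measure the members nearest to ENSCAFG00000006942 were ENSCAFG00000006964 (r = 0.97, place 139 among tested genes) and ENSCAFG00000006835 (0.95, place 294), and ENSCAFG00000006883 was farthest (-0.28).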

How the data were processed

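The authors deposited a single table that holds, for 48 libraries, raw counts of reads by gene. The tools named in the submitters' processing notes are CASAVA, HISAT2 2.0.5 and featureCounts 1.5.1. Per the file headers featureCounts took exons, ignored strand, gave 1 count per gene and used Ensembl release 87 of CanFam3.1. The recorded command sets no option for reads that fit several genes or places. The table columns of passage 10 carry an added number of unstated meaning and were matched to the passage 10 libraries. There were 0 unused columns and 0 summary rows.

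Counts were filtered with filterByExpr (12654 genes kept), scaled by TMM and fitted over all 48 libraries with edgeR 4.0.16 (glmQLFit, glmQLFTest) in R 4.3.3, with Benjamini-Hochberg adjustment over all tested genes and a threshold of 0.05. CPM use TMM-scaled totals, and logs add 0.5 CPM. The SE is the log2 fold change over the square root of F, and 95% intervals are normal. The test was tried on simulated counts first. The common biological coefficient of variation was 17%. Libraries of a group differed beyond sampling noise (lowest chi-square per gene 4.99). The limits set by 0 reads cover only counting error, as molecules were not tagged.

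Passage pairs the libraries: per the labels, every group has 1 library of each passage. Deviations from group means correlated by 0.328 on average in 72 pairs of libraries of like passage (range -0.117 to 0.728, 66 over 0.1) and by -0.0295 in the other 792. Whether these libraries share a culture is not given in the sources used here.

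The members, the lists and the rule for named genes were chosen with earlier results of these data known. Named are all 9 members, the window's other 2 genes, the 3 nearest tested genes on each side and the 3 genes most like ENSCAFG00000006942. Alternatives were RLE factors, totals only, no filter, DESeq2 1.42.0, a filter at 5 CPM, a replicate block, only the groups compared, each passage left out, for likeness Spearman's rho and 0.1 CPM added, and, chosen after the data were seen, fits without the urea library of passage 5.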

Additional observations from a re-analysis of the deposited data

How the results depend on the processing

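The 9 members were the same 9 when CPM were computed from plain library totals. For urea against control 2 to 4 of 9 passed with each passage left out, and 2 or 3 of 9 under the other planned settings that tested all 9, DESeq2 included. Only 6 of the 9 were tested with a mean of at least 5 CPM (not ENSCAFG00000006786, ENSCAFG00000033737 or ENSCAFG00000036538, for either comparison) and, for urea against control, with only the groups compared (not ENSCAFG00000006786, ENSCAFG00000033737 or ENSCAFG00000006942), and 3 of those 6 passed for urea against control. For NaCl against raffinose, where 2 passed, 1 passed with library totals only, with no filter on low counts and with only the groups compared. There 1 to 2 passed with each passage left out, and 4 with passage as a replicate block, which called 3595 genes in place of 1948. With each passage left out that count over all genes ran from 1529 to 1881. The replicate block changed no other call on the members. For the passage trend, 1 member and 2048 genes passed with all 48 libraries, against 0 and 9 with sums per passage. Without passage 1 or passage 19 that total was 1 gene and 0 members. Counts over all genes with each passage left out were 6216 to 6525 for urea against control, 8644 to 8895 and 9238 to 9418 for NaCl and raffinose against control, and 8923 to 9118 and 9366 to 9553 for NaCl and raffinose against urea.

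Of the called genes, 52.3% were higher for urea against control under TMM and 40.1% with totals only. For NaCl against raffinose these shares were 48.2% and 71.1%. The cause of these changes was not tested. No setting turned the direction of a call on a member. Few reads limit ENSCAFG00000006786, ENSCAFG00000033737 and ENSCAFG00000006942 in urea and control libraries, where their fold changes are imprecise.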
